A study of Homo sapiens with 8 samples.

Results

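Ribosome footprints of 37 mitosis genes were examined in 8 libraries of BJ skin fibroblasts, an established human cell line. The genes were taken by name from a list of 41 that covers cyclins and CDK1, mitotic kinases, the spindle assembly checkpoint and the anaphase-promoting complex, kinetochores, spindle motors, condensin and cytokinesis. CENPA, NUF2, PLK1 and SPC25 were not listed in either table under these names and were not analysed here. The remaining 37 were listed in both tables, among 10685 genes common to them.

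All cells were BJ-HRAS. HRAS is a small GTPase, and its mutant form can make fibroblasts stop dividing for good (senescence). (Z)-4-hydroxytamoxifen (4-OHT) binds the estrogen receptor and is often used to activate receptor fusions, and the labels do not say how HRAS is expressed or controlled in these cells. The 4 groups were wild-type (WT) clones 15 and 54 and clones 66 and 69 knocked out (KO) for the small nucleolar RNA SNORA13, each sampled untreated and treated with 4-OHT (100 nM, 7 days). Every group held 2 libraries, 1 from each clone. SNORA13, its host gene EPB41L4A-AS1 and HRAS were not listed, so neither the knockout nor HRAS was checked on these values. Values below are given clone 15 before clone 54 for WT and clone 66 before clone 69 for the knockout. A genotype and the 2 clones that carry it cannot be told apart, and neither can 4-OHT and the table in which its libraries were deposited.

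Ribosome profiling reads the pieces of mRNA that ribosomes protect from nuclease, so a value depends both on how much of an mRNA is present and on how heavily it is translated. RNA abundance was not analysed here. In these bulk cultures, a larger share of cells in mitosis and a higher level per cell cannot be told apart. The unit was RPKM, reads per kilobase of gene span scaled to library depth. The span ran from gene start to gene end with introns included, so levels of different genes cannot be ranked against each other. Approximate read numbers recovered from the values lay between 194276 and 1742132 per library. Reads of the 37 genes numbered between 839 (knockout clone 66 with 4-OHT, the shallowest library) and 5967 (WT clone 15 with 4-OHT) per library.

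Mitosis is driven by CDK1 bound to cyclin B, which phosphorylates many proteins as chromosomes condense and the spindle forms. The spindle assembly checkpoint then holds back the anaphase-promoting complex (APC/C), a ubiquitin ligase, until every chromosome is attached. Once CDC20 is released, the APC/C marks securin and cyclin B for destruction, separase opens the cohesin rings and the cell divides. Genes of this program are mostly transcribed late in the cell cycle, many through the CHR element (TTTGAA) and nearby CCAAT boxes, and their transcripts are usually low in cells that have stopped dividing.

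Promoter sequences were available from RefSeq (GRCh38.p14) for 32 of the 37 genes, and AURKA, BIRC5, TPX2, TTK and UBE2C had no entry in the table used. In the 250 bases before the start, TTTGAA or its reverse complement TTCAAA stood in 18 of 32 promoters (56.3%). The share was 8.56% in 8760 promoters of that length, those of genes listed both without and with 4-OHT. CCAAT or its reverse complement ATTGG stood in 24 of 32 (75%, against 35.5%), and both motifs in 14 of 32 (43.8%, against 3.57%). The E2F-type motifs TTTGGCGC and TTTCCCGC were found on either strand in 1 (NUSAP1) and 0 of the 32, against 0.822% and 2.35% of those 8760 promoters. TTCGAA, a variant of the CHR, was found in 0 of 32, against 1.47%. The 4 promoters below belong to genes that rose with 4-OHT over the 4 clones and that hold both motifs. Capitals mark the CHR and CCAAT letters on either strand. They are given 5′ to 3′ on the plus strand, and each ends at the base before the gene start. CDC20 lies at chr1:43358731-43358980, CCNB2 at chr15:59104896-59105145, CDK1 at chr10:60778081-60778330 and ECT2 at chr3:172750476-172750725.
CDC20: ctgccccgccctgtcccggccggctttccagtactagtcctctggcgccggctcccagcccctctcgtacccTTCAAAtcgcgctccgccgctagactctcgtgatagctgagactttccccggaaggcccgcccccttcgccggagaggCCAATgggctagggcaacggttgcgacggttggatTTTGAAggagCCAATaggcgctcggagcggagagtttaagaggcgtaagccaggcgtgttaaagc
CCNB2: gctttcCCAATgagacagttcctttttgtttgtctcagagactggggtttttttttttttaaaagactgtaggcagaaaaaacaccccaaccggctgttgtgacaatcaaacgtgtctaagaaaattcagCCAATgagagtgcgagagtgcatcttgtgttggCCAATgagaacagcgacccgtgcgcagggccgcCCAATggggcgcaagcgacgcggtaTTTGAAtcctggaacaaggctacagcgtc
CDK1: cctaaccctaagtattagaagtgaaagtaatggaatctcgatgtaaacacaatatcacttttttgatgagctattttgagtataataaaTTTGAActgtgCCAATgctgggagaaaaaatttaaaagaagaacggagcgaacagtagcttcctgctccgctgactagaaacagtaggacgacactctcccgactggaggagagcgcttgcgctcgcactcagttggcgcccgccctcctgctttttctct
ECT2: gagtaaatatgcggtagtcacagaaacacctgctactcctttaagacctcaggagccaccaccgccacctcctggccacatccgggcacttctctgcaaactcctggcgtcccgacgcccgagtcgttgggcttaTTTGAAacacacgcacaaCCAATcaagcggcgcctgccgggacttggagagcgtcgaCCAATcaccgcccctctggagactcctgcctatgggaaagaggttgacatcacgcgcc
The TTTGAA nearest to the start spanned 65 to 60 bases before it in CDC20, 29 to 24 in CCNB2, 161 to 156 in CDK1 and 115 to 110 in ECT2. CCNB2 held 4 copies of CCAAT, the nearest 54 to 50 bases before the start, and CDC20 and ECT2 held 2 each. Among the 12 promoters of genes that rose, 5 held TTTGAA and 11 held CCAAT, and among the other 20, 13 held TTTGAA and 13 held CCAAT. A match of letters is a description of these windows and does not show that a factor binds there.

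With 4-OHT, all 4 cyclin and CDK1 genes of the list, 4 of 5 mitotic kinases, 4 of 5 checkpoint, APC/C and separase genes and both cytokinesis genes rose over the 4 clones. Of the kinetochore genes 1 of 4 rose, of the spindle genes 1 of 10 and of the condensin and chromosome structure genes 0 of 7. These counts by role depend on the test. An alternative fit on recovered reads (limma-voom) also called the spindle genes DLGAP5, KIF2C, PRC1 and TPX2 higher. Tests were by limma-trend on log2(RPKM + 1) with Benjamini-Hochberg adjustment over all 8777 genes tested, and a gene was called at an adjusted p under 0.05. All 37 listed genes passed the filter on low values (10 or more recovered reads in 2 or more libraries). Over the 4 clones together, 16 of the 37 were called higher and 1 lower, where 24.8% of all tested genes were called higher and 15.2% lower. In WT clones 9 of 37 were called higher and 0 lower (background 13.5% and 8.06%), and in knockout clones 14 and 0 (background 17.1% and 10.6%). The 9 genes called in WT clones were AURKA, BIRC5, BUB1, CCNB1, CDC20, CDK1, MAD2L1, PTTG1 and UBE2C, and all 9 were among the 14 called in knockout clones. ANLN, CCNA2, CCNB2, NUSAP1 and TTK completed the 14, and AURKB and ECT2 were called over the 4 clones and in neither genotype alone.

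The median log2 fold change of the 37 genes was 0.31 in WT clones, 0.62 in knockout clones and 0.36 over the 4 clones, and that of all tested genes was 0.06, 0.05 and 0.06. In 16 genes all 4 libraries with 4-OHT lay above all 4 without (43.2%, against 24.5% of all tested genes). They were the genes called higher apart from NUSAP1, with DLGAP5 in its place, and 0 genes lay below (15.9%). Comparing each clone with itself, 21 genes were higher in all 4 clones (33.1% of all tested genes) and 2, KIF20A and MKI67, lower in all 4 (22.6%). Both treated WT libraries lay above both untreated ones in 22 genes (41.5%) and below in 8 (27.5%), and in knockout clones the counts were 24 (36.8%) and 1 (25.8%). Single libraries decided part of the calls. CCNB1, MAD2L1 and PTTG1 were called in WT clones whichever library was left out. In the WT count of 9, leaving out clone 15 without 4-OHT left 4 genes (AURKA, BIRC5, BUB1, CDC20 and CDK1 lost), and clone 54 without 4-OHT left 5 (AURKA, BUB1, CDK1 and UBE2C lost). Leaving out clone 15 with 4-OHT left 6 (AURKA, BUB1 and CDK1 lost), and clone 54 with 4-OHT left 3 (these and BIRC5, CDC20 and UBE2C lost). In the knockout, 9 of 14 were left without clone 66 lacking 4-OHT (ANLN, BUB1, CCNA2, NUSAP1 and TTK lost) and 11 without clone 69 lacking it (BUB1, NUSAP1 and TTK lost). NUSAP1 was also lost there without any 1 WT library or clone 66 with 4-OHT, ANLN without the latter and CCNA2 without clone 69 with 4-OHT. Over the 4 clones, AURKB and ECT2 were lost without any 1 WT library or clone 66 lacking 4-OHT, and NUSAP1 without clone 15 in either condition or clones 54 or 69 lacking 4-OHT. The other 13 genes called higher over the 4 clones kept that call in all 14 alternatives.

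Scaling each library by the median ratio moved the balance over all genes from 2175 higher and 1335 lower to 1499 and 1917 over the 4 clones, from 1182 and 707 to 810 and 961 in WT and from 1498 and 929 to 1004 and 1330 in knockout clones. Under that scaling 14 mitosis genes were higher and 1 lower over the 4 clones, 9 and 1 in WT and 11 and 0 in knockout clones. AURKB and ECT2 lost their call over the 4 clones, and ANLN, CCNA2 and NUSAP1 theirs in knockout clones. The median log2 change over the 4 clones was then 0.21 for the mitosis genes and -0.03 for all genes. By limma-voom on recovered reads, the median log2 change over the 4 clones was 0.23 for all genes and 0.65 for the mitosis genes. Of the mitosis genes 20 were higher and 1 lower, and that fit called 30.7% of all genes higher and 17.9% lower. The genes it added, DLGAP5, KIF2C, PRC1 and TPX2, were all spindle motors or spindle proteins.

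**Figure D1:**
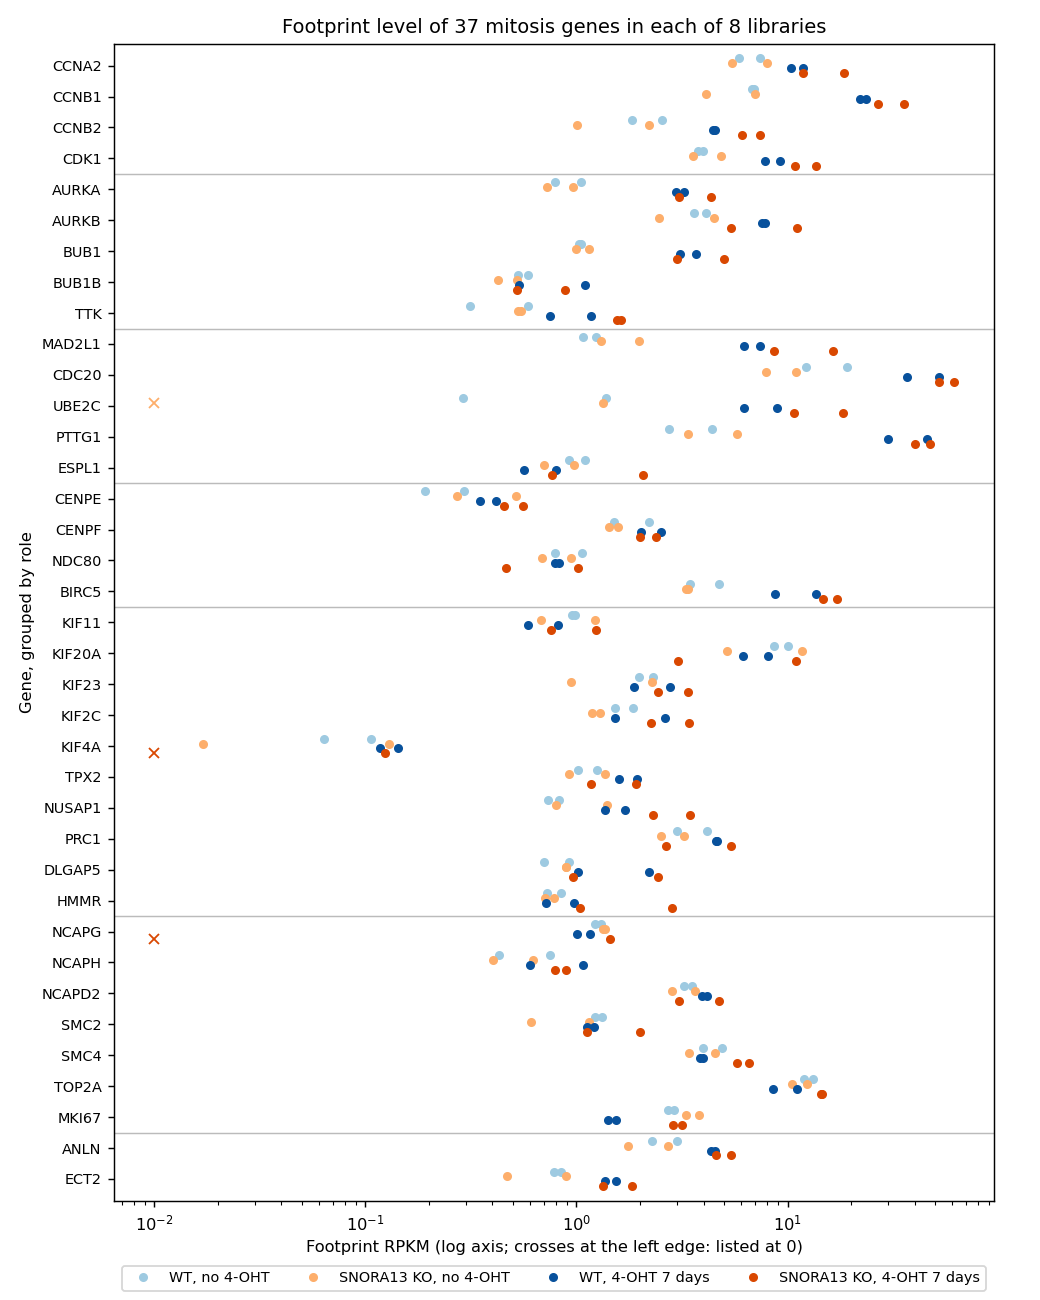
Footprint RPKM (log axis) of the 37 genes in each library, grouped by role. Points are single libraries, coloured by genotype and 4-OHT, and crosses at the left edge stand for libraries listed at 0. Cyclin, kinase, checkpoint and APC/C genes other than BUB1B and ESPL1 lay higher in all 4 libraries with 4-OHT than in any without, and the condensin and chromosome group overlapped between conditions.

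The 4 cyclin and CDK1 genes were all higher over the 4 clones. CCNB1 (ENSG00000134057.15; chromosome 5, 69167150 to 69178245) encodes cyclin B1, the partner of CDK1 at mitotic entry. Its level was 6.82 and 6.95 RPKM in WT and 4.10 and 7.01 in knockout clones without 4-OHT, and 23.5 and 22.0 in WT and 26.9 and 35.7 in knockout clones with it. All 4 libraries with 4-OHT lay above all 4 without, and both knockout clones with 4-OHT lay above both WT clones. The change in log2(RPKM + 1) was 1.59 ± 0.25 (SE) in WT and 2.32 ± 0.25 in knockout clones (limma-trend adjusted p = 0.00512 and 0.00112), and CCNB1 was called in 15 of 15 alternatives in each genotype. As a ratio of mean RPKM, that was 3.31-fold in WT and 5.64-fold in knockout clones.

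CDK1 (ENSG00000170312.15; chromosome 10, 60778331 to 60794852), the kinase itself, stood at 3.97 and 3.78 RPKM in WT and 3.58 and 4.85 in knockout clones without 4-OHT, and 7.85 and 9.21 in WT and 10.9 and 13.7 in knockout clones with it. The untreated libraries lay close together and all treated ones above them, with the knockout clones on top. CDK1 rose by 0.96 ± 0.21 in WT and 1.35 ± 0.21 (SE) in knockout clones on the log2 scale (limma-trend adjusted p = 0.0179 and 0.00422). CCNB2 (ENSG00000157456.8; chromosome 15, 59105146 to 59125045), cyclin B2, had 1.82 and 2.54 RPKM in WT and 1.00 and 2.20 in knockout clones without 4-OHT, and 4.44 and 4.52 in WT and 7.37 and 6.09 in knockout clones with it. It was called in knockout clones (1.60 ± 0.27 SE, limma-trend adjusted p = 0.00531) and had 0.79 ± 0.27 in WT clones (adjusted p = 0.0784). CCNA2 (ENSG00000145386.10; chromosome 4, 121816444 to 121823883), cyclin A2, which acts from S phase into early mitosis, had 7.37 and 5.91 RPKM in WT and 5.48 and 7.96 in knockout clones without 4-OHT, and 11.8 and 10.4 in WT and 11.9 and 18.5 in knockout clones with it. The treated libraries were again all above the untreated ones, and the gene was called in knockout clones (limma-trend adjusted p = 0.0257) and missed the threshold in WT clones (adjusted p = 0.123). Together the 4 genes took between 0.0163% and 0.0256% of a library's reads without 4-OHT and between 0.0557% and 0.0864% with it.

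Among the 5 mitotic kinases listed, 4 rose over the 4 clones. AURKA (ENSG00000087586.17; chromosome 20, 56369390 to 56392215), Aurora A, builds the spindle at centrosomes. Its level was 0.791 and 1.05 RPKM in WT and 0.725 and 0.968 in knockout clones without 4-OHT, and 3.23 and 2.96 in WT and 4.34 and 3.06 in knockout clones with it. Treated and untreated libraries did not overlap, whereas the genotypes overlapped within each condition. The log2 change was 1.10 ± 0.22 (SE) in WT and 1.34 ± 0.22 in knockout clones (limma-trend adjusted p = 0.0128 and 0.00509). BUB1 (ENSG00000169679.14; chromosome 2, 110637528 to 110678063), which recruits checkpoint proteins to kinetochores, had 1.05 and 1.03 RPKM in WT and 1.15 and 0.998 in knockout clones without 4-OHT, and 3.11 and 3.70 in WT and 2.98 and 4.99 in knockout clones with it. The untreated libraries lay close together, below all treated ones. The log2 change was 1.11 ± 0.24 (SE) in WT and 1.24 ± 0.24 in knockout clones (limma-trend adjusted p = 0.0179 and 0.00975).

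AURKB (ENSG00000178999.13; chromosome 17, 8204731 to 8210575), Aurora B, corrects faulty attachments as the kinase of the chromosomal passenger complex. It had 3.62 and 4.11 RPKM in WT and 2.46 and 4.50 in knockout clones without 4-OHT, and 7.80 and 7.55 in WT and 5.37 and 11.1 in knockout clones with it. The rise over the 4 clones was 0.92 ± 0.24 (SE) on the log2 scale (limma-trend adjusted p = 0.0204), with 6 reads behind the value of knockout clone 66 with 4-OHT. In single genotypes AURKB missed the threshold (adjusted p = 0.131 in WT and 0.0658 in knockout clones) and passed it with the clone as a replicate block (0.0474 and 0.0242). TTK (ENSG00000112742.10; chromosome 6, 80004649 to 80042527), the kinase MPS1 at the head of the checkpoint, had 0.313 and 0.589 RPKM in WT and 0.545 and 0.530 in knockout clones without 4-OHT, and 1.17 and 0.747 in WT and 1.63 and 1.55 in knockout clones with it. Both treated knockout clones lay above the other libraries. TTK was called in knockout clones (0.75 ± 0.18 SE, limma-trend adjusted p = 0.0208, 0.0543 with the replicate block) and had an adjusted p of 0.138 in WT clones. BUB1B, the pseudokinase BUBR1 that binds CDC20 in the checkpoint complex, had 0.529 and 0.589 RPKM in WT and 0.424 and 0.525 in knockout clones without 4-OHT, and 0.533 and 1.10 in WT and 0.523 and 0.881 in knockout clones with it. Its treated and untreated ranges overlapped, clone 66 with 4-OHT rested on 6 reads, and the change over the 4 clones was 0.20 ± 0.13 (SE; limma-trend adjusted p = 0.263).

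The largest changes lay in the checkpoint, APC/C and securin group, where 4 of 5 genes were higher in each genotype. PTTG1 (ENSG00000164611.13; chromosome 5, 160421855 to 160428744) encodes securin, the inhibitor of separase that the APC/C destroys at anaphase. Its level was 4.39 and 2.76 RPKM in WT and 3.38 and 5.77 in knockout clones without 4-OHT, and 30.0 and 45.6 in WT and 47.2 and 39.9 in knockout clones with it. The lowest treated library lay far above the highest untreated one, and the 2 genotypes overlapped in both conditions. The ratio of mean RPKM was 10.6-fold in WT and 9.51-fold in knockout clones, and the log2 change was 3.08 ± 0.31 (SE) and 3.03 ± 0.31 (limma-trend adjusted p = 0.00102 and 0.000938).

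UBE2C (ENSG00000175063.17; chromosome 20, 45812644 to 45816952) is the E2 enzyme that starts ubiquitin chains on APC/C substrates. It had 1.38 and 0.289 RPKM in WT and 0 and 1.34 in knockout clones without 4-OHT, and 6.23 and 8.92 in WT and 10.8 and 18.4 in knockout clones with it. The untreated values rested on 8, 1, 0 and 10 reads, so that clone 54 (WT) and clone 66 (knockout) lay under the floor of 3 reads (0.880 and 0.772 RPKM), and the size of the rise is uncertain. All treated libraries lay above all untreated ones. The log2 change was 2.27 ± 0.48 (SE) in WT and 3.30 ± 0.48 in knockout clones (limma-trend adjusted p = 0.0156 and 0.00320). With a pseudocount of 0.1 UBE2C lost its call in WT clones and kept it in knockout clones. MAD2L1 (ENSG00000164109.14; chromosome 4, 120055623 to 120066848), the checkpoint protein MAD2 that sequesters CDC20, had 1.08 and 1.24 RPKM in WT and 1.98 and 1.30 in knockout clones without 4-OHT, and 7.39 and 6.20 in WT and 16.3 and 8.62 in knockout clones with it. The knockout clones were the higher ones in both conditions. MAD2L1 rose by 1.85 ± 0.30 in WT and 2.30 ± 0.30 (SE) in knockout clones (limma-trend adjusted p = 0.00552 and 0.00218).

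CDC20 (ENSG00000117399.14; chromosome 1, 43358981 to 43363203), the activator of the APC/C, had 12.2 and 19.2 RPKM in WT and 7.88 and 10.9 in knockout clones without 4-OHT, and 36.9 and 52.3 in WT and 52.1 and 61.2 in knockout clones with it. Without 4-OHT both knockout clones lay below both WT clones, and with 4-OHT the ranges of the genotypes just overlapped. The ratio of mean RPKM was 2.85-fold in WT and 6.02-fold in knockout clones (log2 change 1.46 ± 0.29 (SE) and 2.48 ± 0.29, limma-trend adjusted p = 0.0111 and 0.00129). ESPL1, separase, the protease that cuts cohesin, was at 0.925 and 1.10 RPKM in WT and 0.70 and 0.969 in knockout clones without 4-OHT, and 0.561 and 0.804 in WT and 2.07 and 0.763 in knockout clones with it. Both WT clones and knockout clone 69 were lower with 4-OHT and clone 66 was higher, on 10 reads, and the change over the 4 clones was 0.04 ± 0.19 (SE; limma-trend adjusted p = 0.875). The 5 genes of this group together took 0.00950% to 0.0140% of the reads without 4-OHT and 0.0479% to 0.0813% with it.

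**Figure D2:**
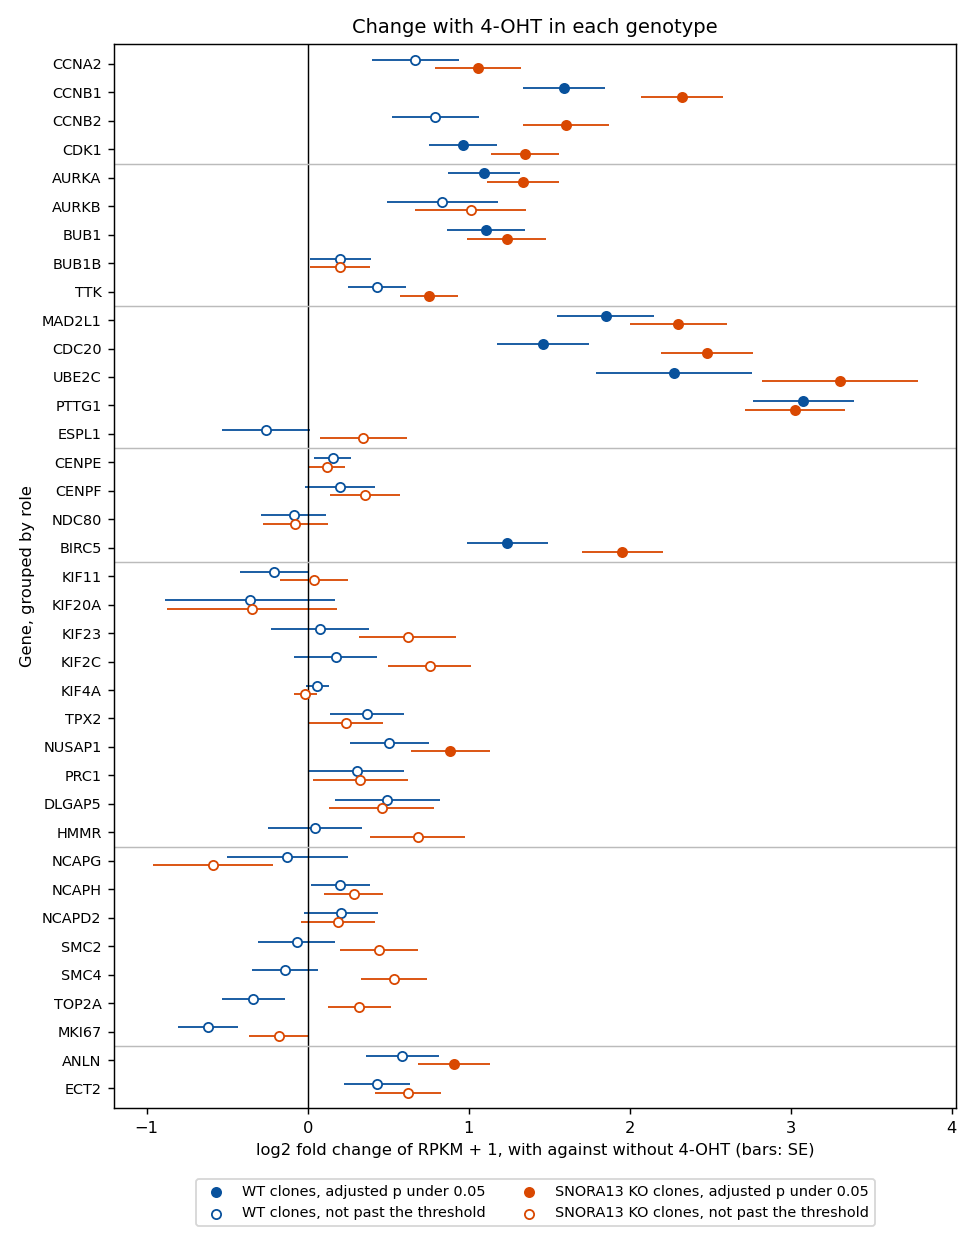
Change with 4-OHT in log2(RPKM + 1) for each gene in WT and knockout clones, with bars of 1 SE. Filled points passed an adjusted p under 0.05. The largest rises were those of PTTG1, UBE2C, MAD2L1, CDC20 and CCNB1, and no gene was called lower in either genotype.

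At the kinetochore, 1 of 4 listed genes rose. BIRC5 (ENSG00000089685.15; chromosome 17, 78214253 to 78225635), survivin, a subunit of the chromosomal passenger complex, had 3.44 and 4.75 RPKM in WT and 3.39 and 3.32 in knockout clones without 4-OHT, and 8.70 and 13.6 in WT and 14.6 and 17.2 in knockout clones with it. Treated and untreated libraries did not overlap, and the knockout clones lay above the WT clones with 4-OHT. BIRC5 rose by 1.24 ± 0.25 in WT and 1.95 ± 0.25 (SE) in knockout clones (limma-trend adjusted p = 0.0131 and 0.00200). CENPF, a large kinetochore and nuclear matrix protein, had 2.21 and 1.5 RPKM in WT and 1.57 and 1.42 in knockout clones without 4-OHT, and 2.52 and 2.02 in WT and 2.39 and 2.01 in knockout clones with it. It was higher in each of the 4 clones, by a log2 change of 0.28 ± 0.15 (SE) that did not pass (limma-trend adjusted p = 0.187). CENPE, the kinesin that carries chromosomes to the spindle equator, lay between 0.191 and 0.561 RPKM in the 8 libraries (log2 change 0.14 ± 0.08 (SE), limma-trend adjusted p = 0.211). NDC80, the microtubule-binding core of the outer kinetochore, lay between 0.465 and 1.07 RPKM, the lowest on 4 reads (log2 change -0.08 ± 0.14 (SE), limma-trend adjusted p = 0.673).

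Of the 10 spindle motors and spindle proteins, 1 was called over the 4 clones. NUSAP1 (ENSG00000137804.13; chromosome 15, 41332881 to 41381046), which bundles microtubules around chromosomes, had 0.829 and 0.732 RPKM in WT and 1.40 and 0.798 in knockout clones without 4-OHT, and 1.70 and 1.37 in WT and 3.47 and 2.30 in knockout clones with it. Both treated knockout clones lay above all other libraries, and knockout clone 66 without 4-OHT lay between the treated WT clones. The log2 change was 0.89 ± 0.24 (SE) in knockout clones (limma-trend adjusted p = 0.0338) and 0.51 ± 0.24 in WT clones (adjusted p = 0.186). The median log2 change of the group was 0.33 over the 4 clones, against 0.06 for all genes.

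KIF2C, a kinesin that depolymerises microtubules at centromeres, was higher with 4-OHT in all 4 clones, with 1.52 and 1.86 RPKM in WT and 1.19 and 1.30 in knockout clones without it and 1.53 and 2.61 in WT and 2.25 and 3.43 in knockout clones with it. Its change over the 4 clones, 0.47 ± 0.18 (SE), missed the threshold (limma-trend adjusted p = 0.0802), and limma-voom placed it past it (0.0180). DLGAP5, which stabilises kinetochore fibres, had 0.923 and 0.699 RPKM in WT and 0.893 and 0.888 in knockout clones without 4-OHT, and 2.21 and 1.02 in WT and 0.965 and 2.44 in knockout clones with it. All treated libraries lay above all untreated ones, but the 2 clones of each genotype differed by over 2-fold with 4-OHT, and the change of 0.48 ± 0.23 (SE) was not called (limma-trend adjusted p = 0.139, 0.00179 by limma-voom). PRC1, the crosslinker of the central spindle, had 4.15 and 3.0 RPKM in WT and 2.51 and 3.22 in knockout clones without 4-OHT, and 4.61 and 4.60 in WT and 2.66 and 5.37 in knockout clones with it. Knockout clone 66 was the lowest in both conditions. Its log2 change over the 4 clones was 0.32 ± 0.21 (SE; limma-trend adjusted p = 0.264, 0.0437 by limma-voom). TPX2, the activator of Aurora A, lay between 0.926 and 1.37 RPKM without 4-OHT and between 1.17 and 1.93 with it, with a log2 change of 0.30 ± 0.16 (SE; limma-trend adjusted p = 0.178, 0.0144 by limma-voom).

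No other motor passed the threshold. KIF20A, the kinesin that brings the passenger complex to the spindle midzone, had 10.0 and 8.66 RPKM in WT and 5.15 and 11.7 in knockout clones without 4-OHT, and 6.13 and 8.08 in WT and 3.04 and 11 in knockout clones with it. Each of the 4 clones was lower with 4-OHT, with 5 reads behind the value of knockout clone 66 with 4-OHT, and the change over the 4 clones of -0.35 ± 0.37 (SE) did not pass (limma-trend adjusted p = 0.482). KIF11, the Eg5 motor that separates spindle poles, had 0.984 and 0.955 RPKM in WT and 0.677 and 1.22 in knockout clones without 4-OHT, and 0.590 and 0.818 in WT and 0.757 and 1.24 in knockout clones with it. Both WT clones were lower and both knockout clones slightly higher with 4-OHT, so that treated and untreated ranges were separate in WT (all treated values lower) and overlapped in knockout clones. KIF23, the centralspindlin motor, had 1.97 and 2.29 RPKM in WT and 0.941 and 2.27 in knockout clones without 4-OHT, and 1.87 and 2.78 in WT and 3.37 and 2.44 in knockout clones with it. HMMR, a microtubule-associated hyaluronan receptor, had 0.846 and 0.727 RPKM in WT and 0.708 and 0.784 in knockout clones without 4-OHT, and 0.720 and 0.976 in WT and 2.84 and 1.04 in knockout clones with it. In both genes the largest value of the knockout with 4-OHT came from clone 66, the shallow library, and neither was called (limma-trend adjusted p = 0.231 and 0.20). KIF4A, a chromosome-bound kinesin, lay at or under 0.143 RPKM in every library, with 2 and 0 reads in clone 66 without and with 4-OHT.

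Of the 7 genes of condensin and chromosome structure, 0 were called higher and 1 lower over the 4 clones. MKI67 (ENSG00000148773.14; chromosome 10, 128096659 to 128126423) encodes Ki-67, the coat protein of mitotic chromosomes used as a marker of proliferation. Its level was 2.72 and 2.89 RPKM in WT and 3.32 and 3.79 in knockout clones without 4-OHT, and 1.41 and 1.54 in WT and 3.17 and 2.87 in knockout clones with it. Both treated WT clones lay below every other library, and each of the 4 clones was lower with 4-OHT than without. Over the 4 clones the log2 change was -0.40 ± 0.13 (SE; limma-trend adjusted p = 0.0455), and with the clone as a replicate block the adjusted p was 0.0897. MKI67 was called lower over the 4 clones in 6 of 14 alternatives, and leaving out any 1 library other than knockout clone 66 with 4-OHT ended the call (adjusted p up to 0.137). In WT clones alone the change was -0.62 ± 0.19 (SE; limma-trend adjusted p = 0.0522, 0.0188 by limma-voom) and in knockout clones -0.18 ± 0.19 (adjusted p = 0.506). Its level with 4-OHT was 1.48 ± 0.0889 RPKM in WT and 3.02 ± 0.208 in knockout clones (mean ± SD, n = 2).

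TOP2A, the topoisomerase that untangles sister chromatids, had 13.2 and 11.9 RPKM in WT and 10.5 and 12.4 in knockout clones without 4-OHT, and 11.1 and 8.50 in WT and 14.6 and 14.4 in knockout clones with it. With 4-OHT both knockout clones were above every other library and both WT clones were below their own untreated level, and the change over the 4 clones was -0.01 ± 0.14 (SE; limma-trend adjusted p = 0.969). SMC4, an ATPase subunit shared by both condensins, had 3.99 and 4.87 RPKM in WT and 4.55 and 3.39 in knockout clones without 4-OHT, and 3.96 and 3.85 in WT and 5.79 and 6.55 in knockout clones with it. The treated knockout clones were again the highest 2 libraries, and the change over the 4 clones was 0.20 ± 0.14 (SE; limma-trend adjusted p = 0.315). Its partner SMC2 had 1.22 and 1.31 RPKM in WT and 0.611 and 1.14 in knockout clones without 4-OHT, and 1.21 and 1.12 in WT and 2.0 and 1.12 in knockout clones with it, and the highest value, that of clone 66 with 4-OHT, rested on 20 reads (log2 change over the 4 clones 0.19 ± 0.17 (SE), limma-trend adjusted p = 0.414).

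The condensin I subunits NCAPD2, NCAPH and NCAPG also stayed short of the threshold. NCAPD2 lay between 2.84 and 4.73 RPKM in the 8 libraries, with a log2 change of 0.20 ± 0.16 (SE) over the 4 clones (limma-trend adjusted p = 0.372). NCAPH lay between 0.402 and 1.07 RPKM, with a log2 change of 0.24 ± 0.13 (SE; limma-trend adjusted p = 0.178). NCAPG had 1.23 and 1.31 RPKM in WT and 1.34 and 1.36 in knockout clones without 4-OHT, and 1.15 and 1.00 in WT and 0 and 1.44 in knockout clones with it. The 0 of clone 66 allows a level of up to 0.464 RPKM, the value of 3 reads. In all, the 7 genes held 0.0787% to 0.0863% of reads without 4-OHT, 0.0709% and 0.0781% in the treated WT clones and 0.0969% and 0.104% in the treated knockout clones.

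Both cytokinesis genes rose over the 4 clones. ANLN (ENSG00000011426.11; chromosome 7, 36389862 to 36453791), anillin, a scaffold of the contractile ring, had 2.99 and 2.27 RPKM in WT and 1.75 and 2.71 in knockout clones without 4-OHT, and 4.36 and 4.51 in WT and 5.41 and 4.60 in knockout clones with it. Treated and untreated libraries did not overlap, and the change was 0.91 ± 0.23 (SE) in knockout clones (limma-trend adjusted p = 0.0239, 0.0543 with the replicate block) and 0.59 ± 0.23 in WT clones (adjusted p = 0.109). ECT2 (ENSG00000114346.13; chromosome 3, 172750726 to 172829265), the exchange factor that activates RhoA at the division plane, had 0.844 and 0.786 RPKM in WT and 0.470 and 0.892 in knockout clones without 4-OHT, and 1.53 and 1.37 in WT and 1.33 and 1.83 in knockout clones with it. The 4 treated libraries were all above the untreated ones, and the change over the 4 clones was 0.53 ± 0.15 (SE; limma-trend adjusted p = 0.0242).

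As a share of all recovered reads, the 37 genes took 0.236% and 0.230% in WT and 0.196% and 0.232% in knockout clones without 4-OHT. With 4-OHT they took 0.348% and 0.370% in WT and 0.432% and 0.477% in knockout clones. The 4 treated libraries were therefore all above the untreated ones, and the treated knockout clones above the treated WT clones, the shallow clone 66 among them.

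**Figure D3:**
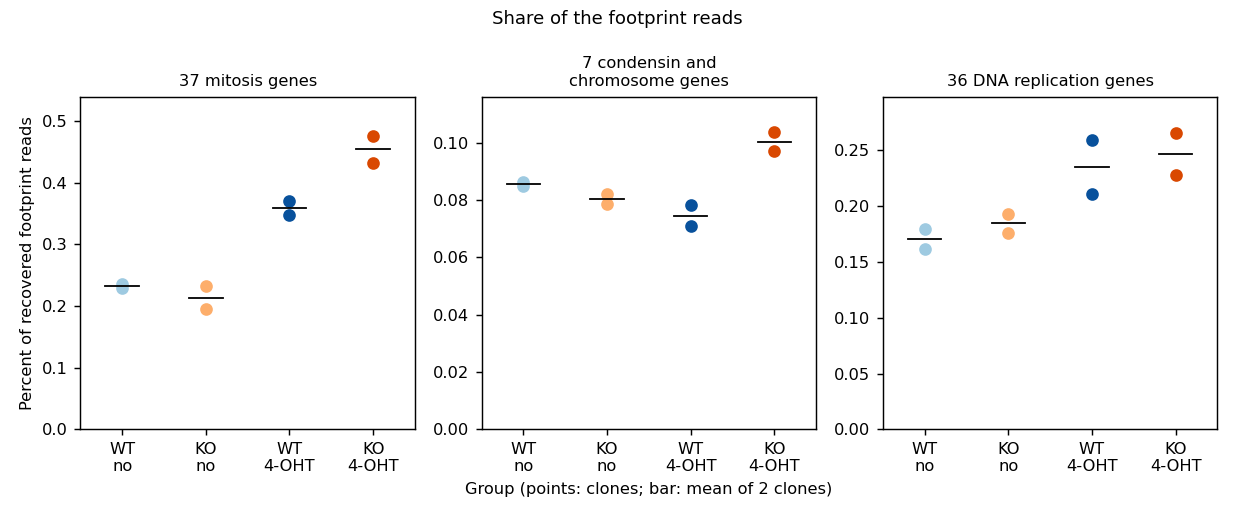
Percent of recovered reads taken by the 37 mitosis genes, by the 7 condensin and chromosome genes among them and by 36 DNA replication genes, in each library (points are clones, bars the mean of 2). The mitosis genes took at most 0.236% without and at least 0.348% with 4-OHT, and the condensin and chromosome group was lowest in treated WT and highest in treated knockout clones.

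The next question was whether the knockout differed from WT. Without 4-OHT, 0 of 36 tested mitosis genes were called higher or lower by limma-trend (background 0.0% in each direction of 8162 genes). Of the 36, 0 had an unadjusted p under 0.05 (688 of all genes, or 8.43%), and limma-voom called 0 of them (62 of all genes). UBE2C was not tested there, for too few reads. In 3 genes (MAD2L1, NCAPG and MKI67) both knockout clones lay above both WT clones, where 18.9% of all tested genes did, and in 5 (BUB1B, CDC20, BIRC5, KIF2C and SMC2) below, where 20.7% did. CDC20 had the smallest unadjusted p, with a difference of -0.66 ± 0.27 (SE) on the log2 scale (limma-trend unadjusted p = 0.0532, adjusted p = 0.603). The median difference of the 36 genes was -0.07, and that of all genes -0.01.

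With 4-OHT, again 0 of 37 were called higher or lower by limma-trend (background 0.0% of 7761 genes). At an unadjusted p under 0.05 there were 2 of 37, both higher in the knockout. That was near the share of all genes (365 in either direction, or 4.70%). UBE2C differed by 0.83 ± 0.33 (SE; limma-trend unadjusted p = 0.0474, adjusted p = 0.822) and MKI67 by 0.70 ± 0.26 (limma-trend unadjusted p = 0.0391, adjusted p = 0.822). By limma-voom 10 had an unadjusted p under 0.05, all higher (610 of all genes, in either direction, or 7.86%). Of the 37, 0 were called by limma-voom (54 of all genes). Both knockout clones lay above both WT clones in 15 of 37 genes (40.5%), where 19.1% of all tested genes did, and below in 0, where 18.5% did. The 15 were CCNA2, CCNB1, CCNB2, CDK1, TTK, MAD2L1, UBE2C, CENPE, BIRC5, NUSAP1, HMMR, SMC4, TOP2A, MKI67 and ANLN. Some rested on few reads in knockout clone 66, the shallowest library, with 8 for CENPE, 9 for UBE2C, 12 for TTK and 17 each for CCNA2 and HMMR. There CCNA2 and CENPE barely exceeded WT clone 15 (11.9 against 11.8 and 0.453 against 0.416 RPKM). In knockout clone 69, ANLN and HMMR barely exceeded WT clone 54 (4.60 against 4.51 and 1.04 against 0.976 RPKM). The median difference of the 37 was 0.22 on the log2 scale, and 28 were positive, against a median of -0.01 for all genes. One library changed the calls. Without knockout clone 69, which leaves the shallow clone 66 as the lone knockout library and assumes that it varies like the WT pair, ESPL1, HMMR and MAD2L1 were called higher and NCAPG lower, among 904 called genes in all.

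**Figure D4:**
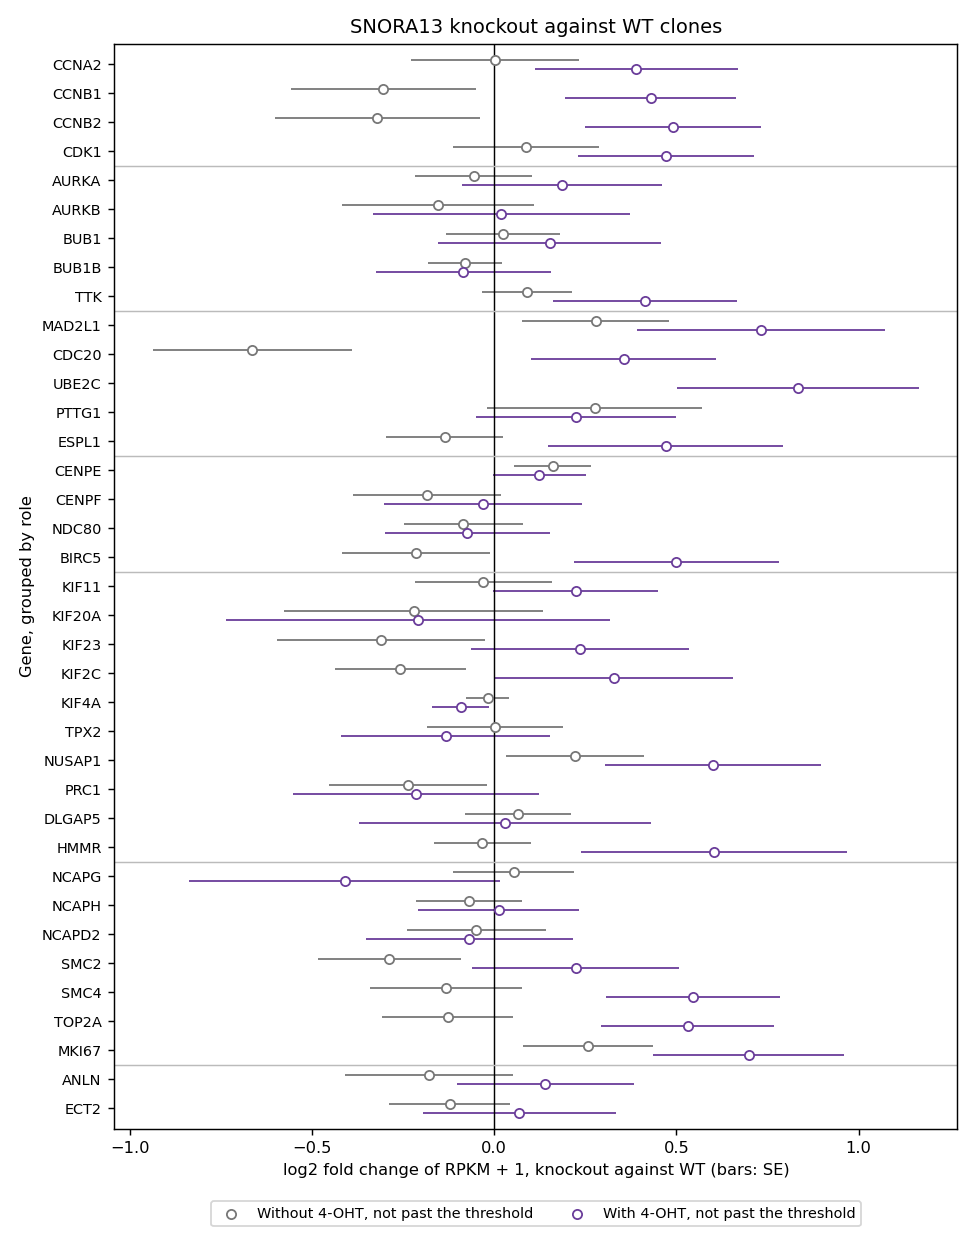
Difference between knockout and WT clones in log2(RPKM + 1) without and with 4-OHT, with bars of 1 SE. No gene passed an adjusted p under 0.05 in either condition, and 28 of 37 differences were above 0 with 4-OHT against 12 of 36 without. The median difference of all tested genes was -0.01 in each condition. These counts describe genes that share the same 4 libraries in a condition.

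Last, the change with 4-OHT was compared between the genotypes. The test of this difference called 0 of 37 genes by limma-trend (background 0.0% of 8777 genes in each direction) and 0 by limma-voom, which called 4 of all genes. At an unadjusted p under 0.05 there were 2, and 6 by limma-voom (453 and 407 of all genes, or 5.16% and 4.64%). The limma-trend count of 2 of 37 was near the share of all genes. The difference, knockout minus WT, was 1.02 ± 0.40 (SE) for CDC20 (limma-trend unadjusted p = 0.0379, adjusted p = 0.859) and 0.66 ± 0.28 for TOP2A (limma-trend unadjusted p = 0.0475, adjusted p = 0.859). For CDC20 it includes a lower untreated level in the knockout (mean 9.41 RPKM, against 15.7 in WT). With 4-OHT the means were 56.7 in the knockout and 44.6 in WT. The log2 change was larger in knockout than in WT clones in 29 of 37 genes, with a median difference of 0.32 on the log2 scale, against -0.0018 for all genes. The middle 50% of the 37 differences ran from 0.01 to 0.58. Since the same libraries enter this test and the comparison of genotypes with 4-OHT, neither supports the other. In TOP2A, SMC4 and KIF11 both WT clones were lower and both knockout clones higher with 4-OHT (3 of 37 genes, where 1.91% of all tested genes were so split), and in KIF4A the reverse (1 of 37, against 2.59%).

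Further genes of mitosis also rose. Of 137 such genes in 5 lists, 115 were tested. Over the 4 clones 54 were called higher and 2 lower (47.0% and 1.74%, against 24.8% and 15.2% of all tested genes). In WT clones 27 and 2 were called (23.5% and 1.74%, against 13.5% and 8.06%). In knockout clones the counts were 37 and 0 (32.2% and 0%, against 17.1% and 10.6%). Their median log2 change over the 4 clones was 0.40. Spindle, motor and cytokinesis genes outside the first list were higher in 23 of 33 cases (69.7%). Among them STMN1, stathmin, which binds free tubulin, had 14.6 and 11.1 RPKM in WT and 9.70 and 12.9 in knockout clones without 4-OHT, and 46.9 and 43.8 in WT and 36.9 and 39.6 in knockout clones with it, and the lowest treated library stood far above the highest untreated one. CKAP2L, a spindle-pole protein, changed by 1.99 ± 0.16 (SE) and TUBG1, the gamma-tubulin that nucleates microtubules, by 1.38 ± 0.13 over the 4 clones (limma-trend adjusted p = 0.000129 and 0.000242). SPAG5, a spindle protein, had 1.69 and 1.59 RPKM in WT and 0.155 and 1.53 in knockout clones without 4-OHT, and 3.51 and 2.37 in WT and 6.11 and 3.37 in knockout clones with it. Knockout clone 66 was the lowest of all libraries without 4-OHT and the highest with it, while clone 69 lay near the WT clones in both conditions. The log2 change was 1.71 ± 0.41 (SE) in knockout clones (limma-trend adjusted p = 0.0203) and 0.56 ± 0.41 in WT clones (adjusted p = 0.372).

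Kinetochore, centromere and passenger genes were higher in 15 of 34 cases (44.1%, against 24.8% of all tested genes) and lower in 0. CENPW, a histone-fold protein of the inner kinetochore, had 2.09 and 0.727 RPKM in WT and 1.15 and 0.672 in knockout clones without 4-OHT, and 12.1 and 14.4 in WT and 16.9 and 10.6 in knockout clones with it. All treated libraries were well above all untreated ones. CENPH, of the same inner complex, rose by 1.62 ± 0.22 and MIS18A, which helps to load the centromeric histone, by 1.45 ± 0.21 (SE) over the 4 clones (limma-trend adjusted p = 0.00113 and 0.00171). Regulators of mitotic transcription and of CDK1 were higher in 8 of 22 cases (36.4%) and lower in 0. CKS2, a small subunit of CDK1 complexes, had 2.47 and 2.75 RPKM in WT and 3.62 and 5.41 in knockout clones without 4-OHT, and 25.7 and 15.1 in WT and 43.7 and 44.9 in knockout clones with it, and the treated knockout clones were the highest 2 libraries. E2F7, a repressor of E2F target genes, had 0.188 and 0.114 RPKM in WT and 0.0250 and 0.251 in knockout clones without 4-OHT, and 5.78 and 4.90 in WT and 8.63 and 6.07 in knockout clones with it, and it rose by 2.66 ± 0.17 (SE) over the 4 clones (limma-trend adjusted p = 5.41e-05). ARPP19 and ENSA inhibit a phosphatase opposed to CDK1. ARPP19 rose by 1.15 ± 0.19 (SE) in WT and 1.35 ± 0.19 in knockout clones (limma-trend adjusted p = 0.00642 and 0.00304). ENSA had 0.290 and 0.0881 RPKM in WT and 0.309 and 0.0611 in knockout clones without 4-OHT, and 1.94 and 2.66 in WT and 0.547 and 0.780 in knockout clones with it. It rose by 1.47 ± 0.19 (SE) in WT clones (limma-trend adjusted p = 0.00225) and had a log2 change of 0.49 ± 0.19 in knockout clones (adjusted p = 0.0897), and the test of the difference did not pass (adjusted p = 0.859).

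APC/C subunits and partners were higher in 6 of 16 cases (37.5%, against 24.8% of all tested genes) and lower in 1. ANAPC11, the RING subunit, had 5.59 and 8.55 RPKM in WT and 8.55 and 8.40 in knockout clones without 4-OHT, and 33.9 and 33.4 in WT and 13.3 and 32.1 in knockout clones with it, with clone 66 the lowest of the treated libraries. UBE2S, the E2 that extends chains begun by UBE2C, rose by 2.55 ± 0.44 (SE) in knockout clones (limma-trend adjusted p = 0.00570), a size that depends on the pseudocount since clone 66 without 4-OHT was listed at 0, and had a log2 change of 0.87 ± 0.44 in WT clones (adjusted p = 0.206). ANAPC13, a small subunit, rose by 1.09 ± 0.29 (SE) in WT and 1.26 ± 0.29 in knockout clones (limma-trend adjusted p = 0.0367 and 0.0185). TRIP13, an ATPase that disassembles checkpoint complexes, rose by 1.46 ± 0.27 (SE) in knockout clones (limma-trend adjusted p = 0.00820) and had 0.84 ± 0.27 in WT clones (adjusted p = 0.0693). ANAPC2, the cullin subunit, had 3.95 and 5.23 RPKM in WT and 2.90 and 2.63 in knockout clones without 4-OHT, and 1.89 and 1.73 in WT and 2.66 and 2.59 in knockout clones with it. Both treated WT clones lay below all other libraries (log2 change -0.98 ± 0.20 (SE) in WT and -0.05 ± 0.20 in knockout clones, limma-trend adjusted p = 0.0129 and 0.865), and over the 4 clones the change was -0.52 ± 0.14 (adjusted p = 0.0229). Cohesin and condensin II genes were higher in 2 of 10 cases (20%) and lower in 1 (10%), both shares under the 24.8% and 15.2% of all tested genes. RAD21, the cohesin subunit that separase cuts, had 9.07 and 6.99 RPKM in WT and 7.63 and 7.70 in knockout clones without 4-OHT, and 9.88 and 8.92 in WT and 16.5 and 12.5 in knockout clones with it, and rose by 0.52 ± 0.15 (SE) over the 4 clones (limma-trend adjusted p = 0.0276), with 0.21 ± 0.21 in WT and 0.83 ± 0.21 in knockout clones (adjusted p = 0.528 and 0.0255). NCAPG2 of condensin II rose by 0.43 ± 0.13 and SMC1A of cohesin fell by 0.74 on the log2 scale (SE 0.14, limma-trend adjusted p = 0.00517, 0.0336 for NCAPG2).

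DNA replication genes were taken for comparison. Of 36 tested, 11 were higher (30.6%, near the 24.8% of all tested genes) and 2 lower over the 4 clones. In WT clones 6 were higher (16.7%, against 13.5%) and 0 lower, and in knockout clones 10 (27.8%, against 17.1%) and 0. The median log2 change was 0.16 over the 4 clones. ORC6, of the origin recognition complex, rose from 1.10 ± 0.529 to 3.58 ± 0.118 RPKM in WT and from 1.31 ± 0.418 to 5.97 ± 0.0372 in knockout clones (mean ± SD, n = 2), and MCM6, of the replicative helicase, fell by 0.60 over the 4 clones (SE 0.16, limma-trend adjusted p = 0.0216). Their share of reads went from between 0.161% and 0.193% to between 0.211% and 0.266%. Whether the lists differ from each other was not tested.

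Several measures moved with these changes, and their part in them was not tested. Shorter genes had larger changes with 4-OHT on the log2(RPKM + 1) scale, on which the added 1 shrinks changes of genes whose span makes their RPKM low. The Spearman correlation of span and log2 change over the 4 clones was -0.52 across the 37 genes and -0.26 across all 8777, a description over genes that share the same 8 libraries. The median span was 14.0 kb in the 16 called higher and 37.9 kb in the other 21. With the span trend removed by a loess curve, all 16 kept their call and 20 were called higher and 1 lower, where 30.5% of all genes were called higher and 12.2% lower. Fibroblast markers, 8 of 8 listed, went from between 5.78% and 7.48% of reads to between 2.35% and 2.82%. The collagen genes, DCN, LUM and PDGFRB were lower and VIM and THY1 higher in share. Leukocyte markers went from between 0.0136% and 0.0287% to between 0.0257% and 0.0401%, from CD68 and CD14, with PTPRC at 0 to 6 reads or not listed and CD3E and LYZ not listed. Epithelial markers held 0.0111% to 0.0381%, nearly all KRT18, endothelial markers at most 1.75e-04%, and melanocyte markers were not listed.

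**Figure D5:**
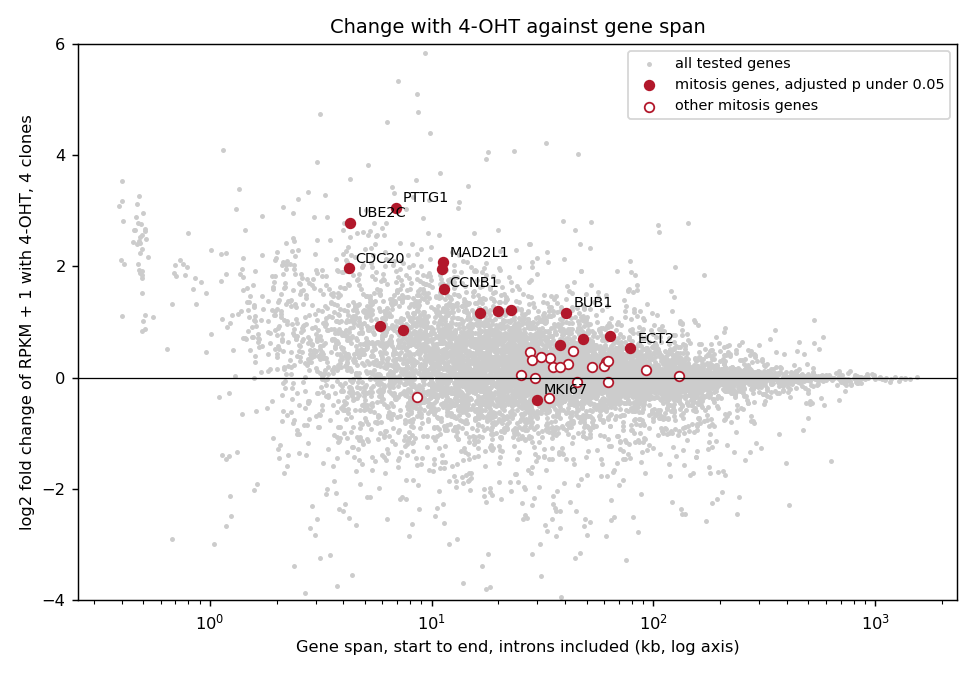
Change with 4-OHT over the 4 clones in log2(RPKM + 1) against gene span in kb (log axis) for all tested genes (grey) and the mitosis genes (red, filled where the adjusted p was under 0.05). PTTG1, UBE2C, MAD2L1, CDC20 and CCNB1, the largest rises, lie left of the members' median span of 33.9 kb, and 16 grey genes lie beyond the vertical range.

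Reads of some members can belong to other genes. In RefSeq, 14 of the 37 have a named copy or pseudogene, among them PTTG1, UBE2C, CDC20, MAD2L1, AURKA, AURKB, BUB1, CCNB2 and MKI67. The span of 5 overlaps another protein-coding gene (CCNA2, BUB1B, KIF20A, NCAPG and ANLN), and those of SMC4, BUB1, NCAPD2 and KIF2C hold small RNA genes (in SMC4 the microRNAs MIR15B and MIR16-2). How multiply mapped reads and strands were counted is not given in the sources used here, so values of these genes are uncertain to that extent.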

How the data were processed

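Ribosome footprints were measured in 8 libraries (4 groups of 2 clones). The authors deposited 1 table without and 1 with 4-OHT, aligned with STAR to GRCh38 per the submitters' processing notes. Versions, read counter and annotation were not given in the sources used here. The deposited values behave as RPKM over gene span, each library normalised on its own. Between 78.2% and 82.9% of low values (under 10 reads) lay within 0.1 of a whole number of reads, from which read numbers were recovered. They are approximate, and floors (3 reads) cover counting error only. Spans came from RefSeq GRCh38.p14, and 99 genes of each table without one were left out.

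Log2(RPKM + 1) was tested with limma-trend (limma 3.58.1, R 4.3.3), Benjamini-Hochberg adjustment over all tested genes, a threshold of 0.05 and no minimum fold. The added 1 shrinks changes of low values. Changes with 4-OHT were fitted on 8 libraries and genotypes within a table, and the script was tested on simulated data. A clone appears without and with 4-OHT, so clone numbers pair libraries by label. Deviations of paired libraries correlated at 0.143 in WT and 0.00750 in the knockout over 8777 genes. Clones counted as replicates within a group. The main fits held no clone term, so a clone entered the 4-OHT fits as separate libraries without and with treatment. Their p-values rest on the spread within groups, pooled over the groups and moderated over genes. Only the replicate block measures how the response to 4-OHT varies between clones.

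The mitosis genes, the further lists and the tests were chosen with earlier results of these data known. All 37 listed members are named, with up to 3 called genes per further list, comparison and direction, and at most 2 genes of comparison lists. Promoters shown are those of members called over the 4 clones with both motifs and the largest rise. Alternatives were a pseudocount of 0.1, no filter, median-ratio scaling, limma-voom on recovered reads, span trend removed, a replicate block, other libraries in the fit and each library left out.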

Additional observations from a re-analysis of the deposited data

Results flagged for a closer look

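In 4 genes both WT clones moved one way with 4-OHT and both knockout clones the other. The test of the difference itself, limma-trend over all 8777 genes, passed for none of them. The difference of log2 changes, knockout minus WT, was 0.66 ± 0.28 (SE) for TOP2A (limma-trend unadjusted p = 0.0475, adjusted p = 0.859) and 0.68 ± 0.29 (SE) for SMC4 (limma-trend unadjusted p = 0.0504, adjusted p = 0.859). It was 0.25 ± 0.30 (SE) for KIF11 (limma-trend unadjusted p = 0.424, adjusted p = 0.899) and -0.0746 ± 0.10 (SE) for KIF4A (limma-trend unadjusted p = 0.484, adjusted p = 0.910). By clone, TOP2A with 4-OHT stood at 0.842 and 0.712 times its own level without in WT and 1.40 and 1.16 times in the knockout, and SMC4 at 0.994, 0.790, 1.27 and 1.93 times. KIF11 stood at 0.60, 0.857, 1.12 and 1.02 times and KIF4A at 1.85, 1.34, 0 and 0.961 times, so some of these shifts were very small. TOP2A rested on 82 to 624 reads per library and SMC4 on 39 to 236, the fewest in knockout clone 66 with 4-OHT. KIF11 rested on 9 to 130, the fewest in that same library, and KIF4A on 0 to 29.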

How the results depend on the processing

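No called mitosis gene changed direction under any alternative run. Of the values of single genes under the alternatives, 2755 stayed on their side of the threshold, 53 passed it newly and 68 dropped below it. These counts pool all comparisons. In those between genotypes the main fit called 0 mitosis genes, so no call could drop there, and all 68 concern the change with 4-OHT. In WT clones 1 gene (MKI67) was lower, in place of 0, with a pseudocount of 0.1, no filter, median-ratio scaling, limma-voom, the span trend removed and the 4 WT libraries alone, and limma-voom gave 15 higher genes in place of 9 and 2970 of all genes in place of 1889. In knockout clones the 4 libraries alone gave 9 higher in place of 14 and 1274 of all genes in place of 2427. With the clone as a replicate block, 0 genes were lower over the 4 clones (MKI67 adjusted p = 0.0897), 16 stayed higher, 10 were higher in WT clones (AURKB added) and 13 in knockout clones (AURKB added, ANLN and TTK lost), and the block changed no other call of the 37 genes. Limma-voom called 4 of all genes for the difference between genotypes in the change, 62 for knockout against WT without 4-OHT and 54 with it, and all 8 libraries in the fit gave 3 without 4-OHT, each in place of 0.

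Leaving out each library in turn gave 3 to 10 higher genes in WT clones and 0 to 1 lower (802 to 2558 of all genes). It gave 9 to 15 higher in knockout clones and 0 to 1 lower (1105 to 3488 of all genes), and 13 to 19 higher and 0 to 1 lower over the 4 clones (2489 to 4306). For the difference between genotypes in the change it gave 0 to 2 of all genes, and for knockout against WT 0 to 6 of all genes without 4-OHT. With 4-OHT it gave 0 to 3 higher and 0 to 1 lower mitosis genes and 0 to 904 of all genes, the highest counts without knockout clone 69. The cause of these shifts was not tested. Depth limits the values of UBE2C without 4-OHT and of KIF4A, NCAPG, NDC80, KIF20A, AURKB and BUB1B in knockout clone 66 with 4-OHT, which rest on 0, 0, 4, 5, 6 and 6 reads.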
